A study of Mus musculus with 12 samples.

Results

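Whole bone marrow was compared between mice that had received 5 Gy of total body irradiation (TBI) and unirradiated control mice. The 6 libraries of this comparison, 3 labelled TBI and 3 labelled control, were taken by their group labels from a series of 12, and all 21853 protein-coding genes of the deposited table were considered. Of these, 10994 genes reached 1 FPKM (fragments per kilobase of transcript, scaled to the library's mapped fragments) or more in 3 or more of the 12 libraries and were tested.

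All mice are described as B6, and marrow was taken on day 14 after TBI. The TBI mice were exposed to gamma rays at 0.66 Gy/min and were given 100 µL of olive oil by gavage, the vehicle of the carotenoid deinoxanthin (DEIX) tested in the other groups. Gavage is not mentioned for the control mice, so irradiation and vehicle cannot be told apart here. The other 6 libraries came from unirradiated mice on DEIX at 25 mg/kg daily for 14 days and from irradiated mice on the same regimen (TBI+DEIX), and serve below as a second irradiation contrast that shares no library with the first. Age and sex are not given in the sources used here. Nothing states that the 3 replicates of a group are separate mice, so p-values measure the spread between these libraries, which may be technical.

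Bone marrow holds the stem and progenitor cells of the blood together with the maturing red cell, granulocyte, monocyte, megakaryocyte and B cell lineages. Ionising radiation breaks DNA in these cells, p53 halts or kills many of them, and lymphoid cells are among the most sensitive. Survivors then proliferate and refill the marrow, with the red cell and myeloid lineages usually returning ahead of the lymphoid. In whole marrow RNA, fewer cells of a type and less RNA per cell cannot be told apart, and this holds for every lineage gene below.

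Markers of the labelled tissue were present in all 6 libraries: the neutrophil gene Lyz2 lay at 6119 to 7841 FPKM and the globin gene Hba-a1 at 866 to 4074 FPKM. Of 8 hepatocyte genes, Fgb, Ttr and Serpina1c were at 0 in all 6 libraries, Alb reached at most 0.0104 FPKM, and the list summed to 28.8 to 42.1 FPKM, of which Trf, also a macrophage gene, gave 27.9 to 41.4 FPKM. The 10 skeletal muscle genes summed to 6.06 to 8.53 FPKM, with Pvalb at 0 and Mylpf highest at 3.97 to 6.68 FPKM. Read depth is unknown, because the values are FPKM without counts. Between 10457 and 10832 genes reached 1 FPKM per library. Correlations of log2(FPKM + 1) across genes were 0.992 to 0.996 among control libraries, 0.981 to 0.992 among TBI libraries and 0.963 to 0.981 between the groups. TBI replicate 1 stood apart from the other 2 TBI libraries on the second principal component of the 6 libraries (19.8 against -8.87 and -17.3), and values without it are given for the B lineage lists and for some genes below. The neutrophil genes S100a8, S100a9 and Ngp were listed at 0 in some libraries and at 13842 FPKM or more in others, and no change is given for them.

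Genes called lower in TBI included B cell surface, T and natural killer, dendritic cell, stem and progenitor, megakaryocyte and interferon-induced genes. The lists as a whole were not tested. Called rises were fewer and smaller, while more genes lay without overlap above the controls (2416, 22%) than below them (1789, 16.3%). Expression was tested with limma on log2(FPKM + 1) with 4 group means over 12 libraries, with a call where the Benjamini-Hochberg adjusted p was below 0.05. This gave 439 of 10994 genes (3.99%), of which 341 were lower (3.1%) and 98 higher (0.891%) in TBI, and 1988 genes had an unadjusted p under 0.05. With only the 6 libraries of the comparison in the fit, 1417 genes were called (12.9%), 853 lower (7.76%) and 564 higher (5.13%), including all 439. Leaving out 1 of the 6 libraries lowered the 12-library count to between 153 (without control replicate 1) and 259 (without TBI replicate 3), and leaving out TBI+DEIX replicate 1 raised it to 1337. Of the 108 called genes followed one by one, 38 to 59 lost their call in the 12-library fit when 1 of the 6 libraries was left out, and 0 to 12 did in the 6-library fit. The median change was -0.89 (log2) among the 341 falls, 133 of which exceeded 1, and 0.59 among the 98 rises, 7 of which exceeded 1. The median over all tested genes was 0.05.

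**Figure D1:**
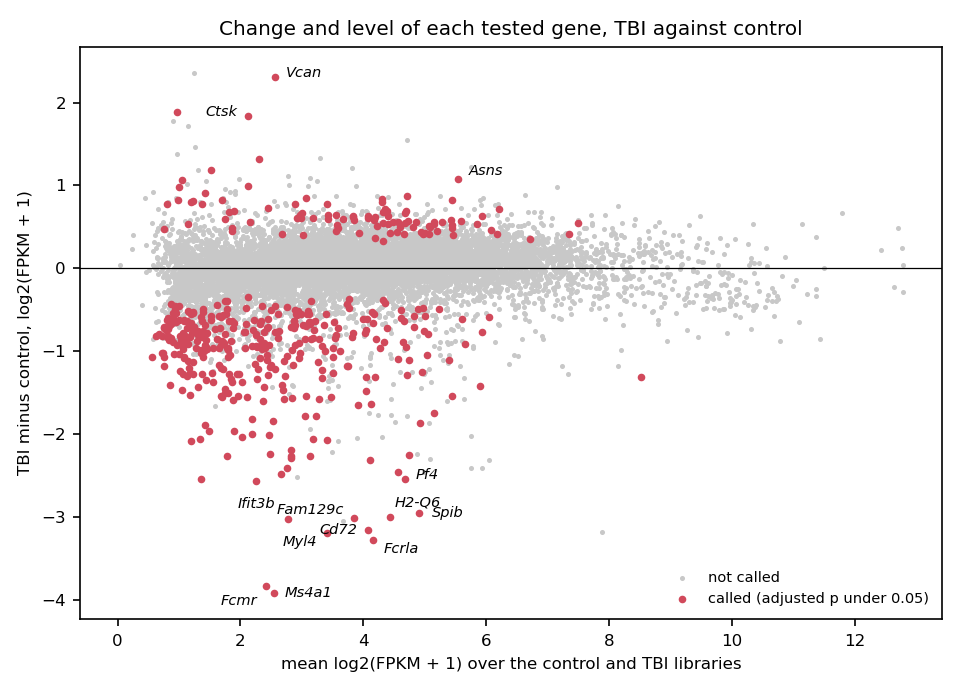
Change of each tested gene in TBI against control (vertical axis, difference of mean log2(FPKM + 1)) against its mean log2(FPKM + 1) over the 6 libraries (horizontal axis). Red points are the called genes, with the largest named falls and rises labelled, and S100a8, S100a9 and Ngp are left out; the largest falls reach -3.92 and the largest rise among called genes 2.31.

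The largest fall among called genes was in Ms4a1, the gene of the B cell surface protein CD20 (chromosome 19, 11249675 to 11266241, mm10). It stood at 25.2, 18.0 and 22.6 FPKM in the control libraries and at 0.314, 0.546 and 0.664 FPKM in TBI. The groups lay far apart: the mean was 43.2-fold lower in TBI, and the change was -3.92 ± 0.44 (log2, SE; adjusted p = 0.000965). Fcmr, the receptor for IgM, went from 19.8, 15.9 and 22.3 FPKM to 0.315, 0.343 and 0.592 FPKM, a change of -3.84 ± 0.23 (adjusted p = 2.91e-05). Fcer2a, the low-affinity IgE receptor CD23 of follicular B cells, was at 3.90 to 6.22 FPKM in control and below 0.1 FPKM in every TBI library (-2.54 ± 0.20, adjusted p = 0.000119). These 3 genes mark B cells that have completed their development, and none of them overlapped between the groups.

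Of 20 genes for B cell surface and signalling proteins, 9 fell and none rose (12-library fit), against 3.1% of all genes called lower. The other 6 were Cr2 (complement receptor 2), Cd22 and Cd72 (inhibitory co-receptors), Blk (a Src-family kinase), Fcrla, and Tnfrsf13c, the receptor for the survival factor BAFF. Cd22 stood at 12.4, 9.55 and 11.5 FPKM in control and 0.774, 1.68 and 2.49 FPKM in TBI (-2.24 ± 0.28, adjusted p = 0.00158). Cd72 went from 45.5 to 54.1 FPKM to 1.32, 6.54 and 9.17 FPKM (-3.16 ± 0.48, adjusted p = 0.00477). Without TBI replicate 1, Fcrla was at -2.83 and short of the threshold with 12 libraries (adjusted p = 0.0604, and 1.88e-05 with 6). The median of the list was -1.94, against 0.05 over all genes, and it was -1.08 without TBI replicate 1. The count was 14 with the 6 libraries alone, against 7.76% of all genes. It was 8 to 9 (12-library fit) and 11 to 16 (6-library fit) when each of the 6 libraries was left out in turn. Cd24a and Cd37, which other marrow cells also express at high level, were not called. Cd24a lay at 807 to 960 FPKM in control and 931 to 1180 FPKM in TBI (adjusted p = 0.537).

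B cell precursors gave a different picture, and there the TBI libraries split. Igll1, which encodes the lambda5 part of the surrogate light chain carried by pre-B cells, stood at 37.5, 38.3 and 35.2 FPKM in control. In TBI it was at 6.51 FPKM in replicate 1 and at 74.9 and 94.2 FPKM in replicates 2 and 3. One irradiated library thus lay below all controls and the other 2 above them. Its partner Vpreb1 was at 32.0 to 37.5 FPKM in control and at 4.69, 73.7 and 84.99 FPKM in TBI. Dntt, the polymerase that adds bases at V(D)J joints, was at 29.4 to 33.6 FPKM in control and at 7.204, 50.7 and 73.3 FPKM in TBI. For none of the 3 did the mean differ by more than the spread (adjusted p = 0.998, 0.963 and 0.991). Over the 10 genes of V(D)J recombination and the pre-B receptor, the mean log2(FPKM + 1) lay 2.57 below the control mean in TBI replicate 1. It lay 0.04 below in replicate 2 and 0.24 above in replicate 3.

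Only Il7r, the receptor for the pre-B cell growth factor IL-7, was called lower in that list (1 of 10, against 3.1% of all genes), and barely. It went from 21.3, 17.7 and 15.5 FPKM to 2.06, 7.67 and 9.19 FPKM (-1.55 ± 0.39, adjusted p = 0.0492). The call of Il7r was lost in 21 of 30 alternative settings. Without TBI replicate 1, the 12-library fit called none of the 10 genes, while the 6-library fit called 4 higher and 3 lower, against 7.49% and 9.04% of all genes in that fit. The median of the list was -0.59 with all TBI libraries and -0.06 without replicate 1. The precursor result therefore depends on 1 library, and the fall of the mature genes was present in all 3.

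The transcription factors of the lineage lay between these patterns. Spib fell from 89.3, 72.9 and 87.4 FPKM to 3.86, 12.7 and 17.9 FPKM (-2.96 ± 0.56, adjusted p = 0.0151), or by 2.38 without TBI replicate 1 (adjusted p = 0.0517 with 12 libraries and 0.000155 with 6). Ikzf3, which encodes Aiolos, fell from 12.8 to 16.5 FPKM to 1.83 to 2.72 FPKM (-2.19 ± 0.24, adjusted p = 0.00094), and Bach2, a regulator of B cell activation, from 13.2 to 16.3 FPKM to 0.545 to 4.22 FPKM (-2.27 ± 0.40, adjusted p = 0.0104). The commitment factor Pax5 was lower in every TBI library (1.14, 9.24 and 10.4 FPKM against 16.1 to 19.4 FPKM) without passing the test (adjusted p = 0.231). Erg, which is also a stem cell and megakaryocyte factor, was the single riser, from 17.6 to 20.8 FPKM to 25.9 to 36.9 FPKM (0.67 ± 0.13, adjusted p = 0.0166). That call was lost in 7 of 30 alternative settings. The list thus had 3 falls and 1 rise among 11 genes, against 3.1% and 0.891% of all genes. The median of the list was -1.36, and -0.50 without TBI replicate 1, and leaving out 1 library left 1 to 3 falls with 12 libraries. None of the 12 plasma cell genes was called (4 lower and 1 higher with 6 libraries, against 7.76% and 5.13% of all genes), and the joining chain gene Jchain overlapped between the groups at 175 to 332 FPKM in control and 230 to 328 FPKM in TBI.

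**Figure D2:**
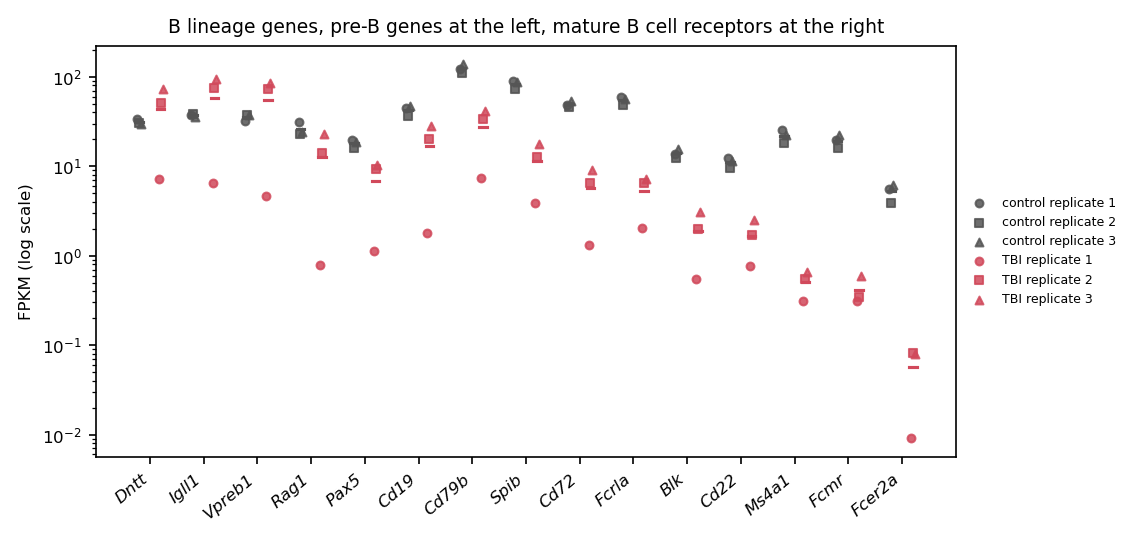
FPKM (vertical axis, log scale) of 15 B lineage genes in each control library (grey) and TBI library (red), with the replicate given by the marker and the group mean by a short bar. At the left, Dntt, Igll1 and Vpreb1 put TBI replicate 1 below and replicates 2 and 3 above the controls, while at the right Ms4a1, Fcmr and Fcer2a are low in all 3.

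T and natural killer cell genes were lower throughout: all 25 tested members had a negative change, with a median of -0.77, and 7 fell (21 in the 6-library fit), against 3.1% of all genes (7.76% with 6 libraries). Cd2, an adhesion receptor of T and natural killer cells, stood at 14.1, 13.8 and 16.0 FPKM in control and at 1.89, 2.55 and 2.14 FPKM in TBI (-2.29 ± 0.28, adjusted p = 0.00139). Gzma, the cytotoxic protease granzyme A, stood at 16.5, 23.1 and 14.0 FPKM in control and 3.73, 4.21 and 2.54 FPKM in TBI (-2.06 ± 0.30, adjusted p = 0.00378). Both sets of libraries were fully separate. The co-receptor Cd4, the natural killer receptor Klrb1c, the receptor chain Cd247, the pore-forming Prf1 and the T cell factor Tcf7 also fell, by 0.76 to 0.98 on the log2 scale. Of 29 alternative settings, the call was lost in 11 for Cd4, 7 for Klrb1c, 6 for Tcf7, 5 for Cd247 and 2 for Prf1. Cd3e (1.25 to 1.72 FPKM against 2.64 to 2.90 FPKM) and Cd8a (0.659 to 1.01 FPKM against 1.66 to 2.13 FPKM) did not pass with 12 libraries (adjusted p = 0.11 and 0.166) but did with 6 (0.0098 and 0.0103). Leaving out 1 of the 6 libraries left 2 to 6 calls in the 12-library fit and 12 to 23 in the 6-library fit.

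Among 19 dendritic cell genes, 7 fell and none rose (15 lower with 6 libraries), against 3.1% of all genes (7.76% with 6 libraries) called lower, and the median was -0.89. Leaving out 1 of the 6 libraries left 4 to 7 falls (12 to 15 with 6 libraries), with 4 without control replicate 1 or 3. The list includes genes of plasmacytoid dendritic cells, which secrete type I interferon. Siglech, a surface lectin of these cells, went from 28.1, 26.5 and 25.4 FPKM to 7.81, 8.69 and 10.4 FPKM (-1.48 ± 0.24, adjusted p = 0.00725). Tcf4, the factor that maintains their identity, went from 19.0 to 22.1 FPKM to 9.25 to 14.0 FPKM (-0.75 ± 0.14, adjusted p = 0.0166). Klk1, Kmo, Cd300c, the chemokine receptor Ccr9 and Pacsin1 fell by 0.65 to 1.82 on the log2 scale. Irf8, a factor needed by dendritic cells and monocytes, was at 94.2 to 96.6 FPKM in control and 44.4 to 58.5 FPKM in TBI, just short of the threshold (-0.88 ± 0.22, adjusted p = 0.053).

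In the stem and progenitor list all 17 tested genes had a negative change, with a median of -0.82, and 6 fell (10 with 6 libraries), against 3.1% of all genes (7.76% with 6 libraries). Cd34, a sialomucin of progenitor cells (chromosome 1, 194938819 to 194961279), stood at 21.2, 21.0 and 20.3 FPKM in control and at 7.01, 2.92 and 3.44 FPKM in TBI (-2.07 ± 0.32, adjusted p = 0.00517). Meis1, a transcription factor of stem cells, went from 1.86, 1.61 and 1.83 FPKM to 0.512, 0.523 and 0.609 FPKM (-0.84 ± 0.12, adjusted p = 0.00335). Both were separate between the groups in all libraries. The receptor ligand Angpt1, Myct1 and Myb, a factor of cycling progenitors, fell as well, Myb from 77.2 to 81.1 FPKM to 39.4 to 52.5 FPKM (-0.77 ± 0.12, adjusted p = 0.00643), a call lost on the TPM scale (adjusted p = 0.0938). The receptor Kit, by contrast, was at 18.1 to 19.5 FPKM in control and 13.1 to 14.2 FPKM in TBI without passing the 12-library test (-0.42 ± 0.20, adjusted p = 0.288, 0.0123 with 6 libraries). The count of 6 was the same whichever of the 6 libraries was left out of the 12-library fit. A further 7 listed genes, among them Procr and Slamf1, did not reach the expression filter.

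Megakaryocytes, the cells that shed platelets, showed the same direction: 8 of 23 genes fell and 1 rose (13 and 1 with 6 libraries), with a median of -0.60. Over the members with a mean of at least 5 FPKM the median was -0.21. Over all genes 3.1% were called lower and 0.891% higher (7.76% and 5.13% with 6 libraries). Pf4, the platelet chemokine CXCL4, stood at 71.4, 50.6 and 61.9 FPKM in control and at 4.02, 17.1 and 12.2 FPKM in TBI, 5.53-fold lower in the mean (-2.54 ± 0.40, adjusted p = 0.00559). Ppbp, another platelet chemokine, went from 61.3, 29.8 and 28.9 FPKM to 5.06, 8.28 and 7.33 FPKM (-2.31 ± 0.40, adjusted p = 0.00921). Itga2b, the integrin chain that binds fibrinogen on platelets, and Tubb1, the tubulin of the platelet rim, fell by 1.403 and 1.35 on the log2 scale. Without TBI replicate 1, Itga2b was at -1.23 and lost its call with 12 libraries (adjusted p = 0.0673) but not with 6 (0.000888). Treml1, F2rl2, Gng11 and Mrvi1 fell by 0.69 to 1.27. Vwf was lower in every TBI library (0.950 to 1.26 FPKM against 1.75 to 2.72 FPKM, adjusted p = 0.0676). The riser was Ptgs1, a cyclooxygenase that other marrow cells also express, from 26.2 to 27.9 FPKM to 37.2 to 40.4 FPKM (0.51 ± 0.12, adjusted p = 0.0372), and it lost its call in 10 of 30 alternative settings. Leaving out 1 of the 6 libraries left 5 to 8 falls with 12 libraries, 5 without control replicate 1 or TBI replicate 1.

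**Figure D3:**
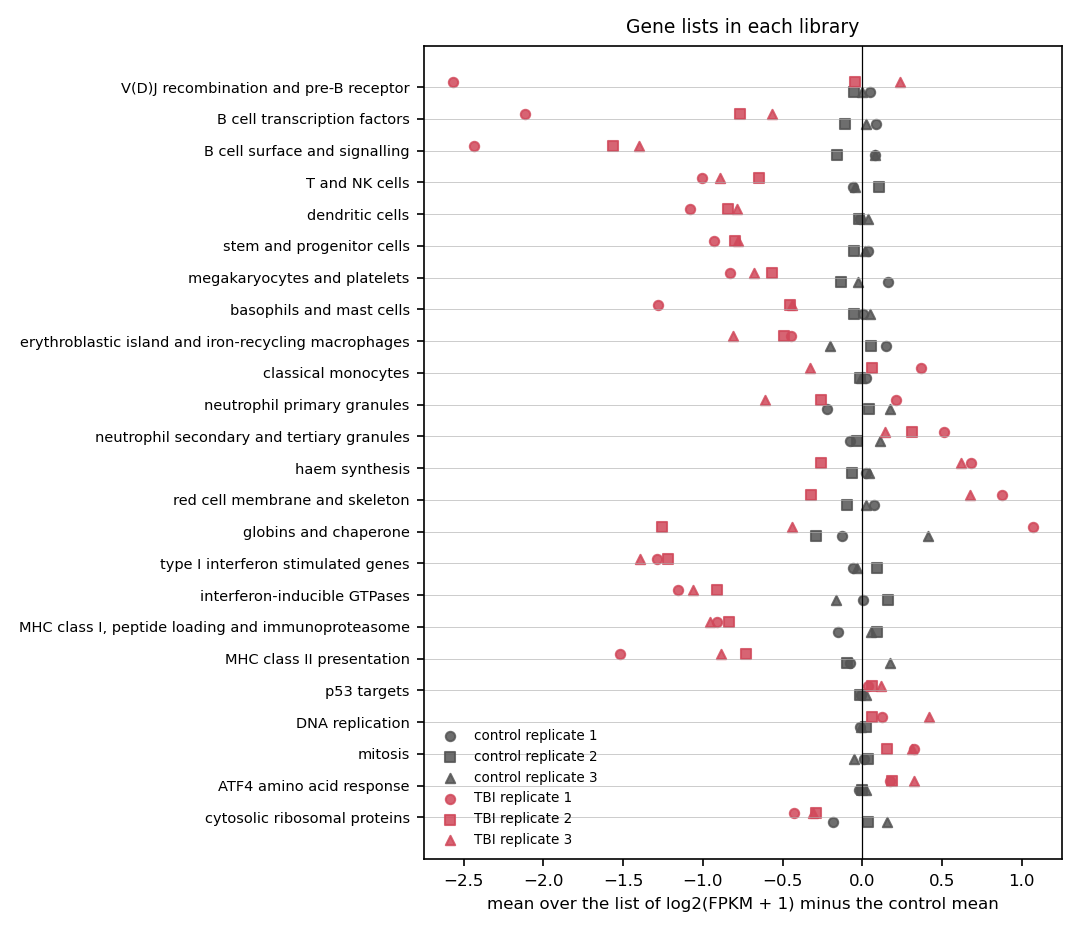
Mean over each gene list of log2(FPKM + 1) minus the control mean (horizontal axis) for 24 lists (vertical axis), with control libraries in grey, TBI libraries in red and the replicate given by the marker. The B cell surface, T and natural killer, dendritic, progenitor and interferon lists lie to the left in all 3 TBI libraries, whereas the pre-B list (-2.57, -0.04 and 0.24) and the red cell membrane list (0.87, -0.32 and 0.68) split them.

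Interferons induce a large set of genes through transcription factors that bind a DNA element called ISRE in the promoters of many of them. Healthy marrow keeps such genes on at a low tonic level. All 43 tested type I interferon-stimulated genes had a negative change in TBI, with a median of -1.09, and 11 fell in the 12-library fit, 40 in the 6-library fit, against 3.1% and 7.76% of all genes. Ifit3b, an antiviral protein that binds foreign RNA, stood at 15.3, 21.2 and 19.5 FPKM in control and 1.30, 2.07 and 0.960 FPKM in TBI, 12.9-fold lower in the mean (-3.02 ± 0.69, adjusted p = 0.0356, and 0.000136 with 6 libraries). Lgals3bp went from 91.6, 104 and 93.9 FPKM to 31.4, 38.9 and 36.3 FPKM (-1.42 ± 0.19, adjusted p = 0.00253). Slfn8 went from 26.5, 27.7 and 22.96 FPKM to 6.81, 8.21 and 7.45 FPKM (-1.65 ± 0.32, adjusted p = 0.0177). The 3 TBI libraries lay close together for each of these genes, and TBI replicate 1 lay with the other 2. The RNA sensor Ifih1, the RNA editor Adar and Ifi44, Ifi35, Parp9, Phf11b, Phf11d and Tor3a fell by 0.58 to 1.56.

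The number of interferon genes called differed with the libraries in the fit. Leaving out 1 of the 6 libraries left 2 to 3 of the 43 in the 12-library fit and 35 to 41 in the 6-library fit, and leaving out TBI+DEIX replicate 1, a library outside the comparison, raised the 12-library count to 39. The spread of the TBI+DEIX group (root mean square SD 0.418 on the log2 scale, against 0.140 in control and 0.225 in TBI) enters the 12-library fit. Ifi27l2a, which was not called, went from 626, 766 and 735 FPKM to 52.8, 130 and 66.4 FPKM, with an adjusted p of 0.198 with 12 libraries and 0.000682 with 6.

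Of the 15 interferon-inducible GTPases, which attack vacuoles of intracellular pathogens, 7 fell (15 with 6 libraries), against 3.1% of all genes (7.76% with 6 libraries), and the median was -1.04. Whichever of the 6 libraries was left out, 2 of the 15 were called with 12 libraries and 12 to 15 with 6. Tgtp2 stood at 9.98, 12.6 and 7.78 FPKM in control and 1.41, 2.61 and 2.29 FPKM in TBI (-1.84 ± 0.24, adjusted p = 0.00202), and Irgm1 at 38.6, 43.5 and 38.5 FPKM and 14.7, 16.5 and 16.3 FPKM (-1.29 ± 0.27, adjusted p = 0.0232). Igtp, Gbp3, Gbp4, Gbp6 and Tgtp1 also fell. The calls of Irgm1 and Igtp were lost in each of the 6 leave-outs of the 12-library fit, with an adjusted p of up to 0.101 and 0.0927. Tgtp1 and Tgtp2 are close copies of each other on chromosome 11, as are Ifit3 and Ifit3b on chromosome 19, and how shared reads were split between such copies is not given in the sources used here. Among the 8 oligoadenylate synthetases, which sense double-stranded RNA, Oasl1 (12.7 to 15.4 FPKM against 3.20 to 3.75 FPKM, adjusted p = 0.0448) and Oas1c (5.51 to 6.10 FPKM against 2.97 to 3.05 FPKM, adjusted p = 0.00905) fell. These were 2 of 8 (7 with 6 libraries), against 3.1% of all genes (7.76% with 6 libraries). Leaving out 1 of the 6 libraries left 0 to 1 of them called with 12 libraries. Oasl1 lost its call in each of these leave-outs (adjusted p up to 0.162), and Oas1c lost its call without control replicate 1 (0.0516). None of the 16 interferon receptors, kinases and transcription factors was called (7 lower with 6 libraries, against 7.76% of all genes).

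Promoter letters are shown for called interferon genes, and for Ifit3 beside its copy, because they hold letters of the ISRE. The motif searched was GAAA, any 2 bases and GAAA, on both strands, in the 250 bases before the RefSeq start of each gene (GRCm38.p6), and its matches are in capitals, read as TTTC, any 2 bases and TTTC where the match is on the other strand. The 2 Ifit3 copies (chromosome 19, 34607739 to 34607842 for Ifit3b and 34583343 to 34583446 for Ifit3, plus strand) have identical letters over 104 bases with 2 matches. Tgtp2 (chromosome 11, 49064213 to 49064312), Irgm1 (chromosome 11, 48871421 to 48871480, where 2 matches overlap) and Slfn8 (chromosome 11, 83020811 to 83020888) lie on the minus strand, and their stretches end at the base before the start.
Ifit3b: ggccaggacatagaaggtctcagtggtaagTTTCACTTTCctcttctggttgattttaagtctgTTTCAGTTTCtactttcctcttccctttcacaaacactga
Ifit3: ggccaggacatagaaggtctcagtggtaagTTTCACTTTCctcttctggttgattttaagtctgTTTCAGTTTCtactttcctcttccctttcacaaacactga
Tgtp2: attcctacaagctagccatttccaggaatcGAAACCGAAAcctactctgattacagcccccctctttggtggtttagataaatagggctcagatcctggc
Irgm1: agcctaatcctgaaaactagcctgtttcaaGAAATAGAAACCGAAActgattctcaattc
Slfn8: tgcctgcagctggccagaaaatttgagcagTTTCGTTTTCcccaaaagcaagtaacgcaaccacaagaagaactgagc

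A match was present in 13 of 33 type I interferon-stimulated genes with a promoter entry (39.4%), in all 9 GTPases and in 4 of 6 oligoadenylate synthetases, against 3.51% of the 8781 tested genes with an entry and 2.98% of all 32851 promoters of the table. Among genes of MHC class I, peptide loading and the immunoproteasome, a match was present in 3 of 19 (15.8%). It was present in 27 of 265 genes called lower (10.2%) and in 1 of 76 called higher (1.32%). Of the genes called lower that are in no interferon list, 17 of 239 (7.11%) held it. A match describes these letters and is not a measured binding site. Ifit3 itself went from 29.8, 39.8 and 37.6 FPKM to 2.97, 4.33 and 3.07 FPKM and missed the threshold (-3.05 ± 0.76, adjusted p = 0.0505, and 8.96e-05 with 6 libraries).

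MHC class I molecules show peptides made by the proteasome to T cells, and their genes respond to interferon through the activator NLRC5. Of 23 genes of class I, peptide loading and the immunoproteasome, 8 fell and none rose (19 lower with 6 libraries), against 3.1% of all genes (7.76% with 6 libraries) called lower, and the median was -0.86. H2-Q6, a non-classical class I gene (chromosome 17, 35424850 to 35430055), stood at 53.7, 75.2 and 54.6 FPKM in control and at 4.42, 8.44 and 7.74 FPKM in TBI (-3.01 ± 0.24, adjusted p = 0.000119). The classical H2-K1 went from 499, 633 and 613 FPKM to 213, 255 and 232 FPKM (-1.31 ± 0.26, adjusted p = 0.0189). The peptide transporter Tap1 went from 62.1, 73.8 and 69.5 FPKM to 35.7, 37.7 and 33.5 FPKM (-0.92 ± 0.17, adjusted p = 0.0123). Each was separate in all libraries, and Nlrc5 itself fell from 15.2 to 18.9 FPKM to 5.52 to 7.30 FPKM (-1.26 ± 0.21, adjusted p = 0.00721). H2-Q4, H2-Q7, H2-M3 and H2-T22 fell too. The 12-library calls of H2-K1 and H2-T22 were lost whichever of the 6 libraries was left out (adjusted p up to 0.0883 and 0.0927). The H2-Q genes are near copies, so the split of reads among them is uncertain. The light chain B2m (2059 to 2835 FPKM against 1132 to 1427 FPKM) did not pass with 12 libraries (adjusted p = 0.382).

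In class II presentation, 3 of 10 genes fell (6 with 6 libraries), against 3.1% of all genes (7.76% with 6 libraries), and all 10 changes were negative. The 3 were H2-Ob, H2-Oa and H2-DMb2, which encode the DO and DM proteins that edit peptide loading. H2-Ob stood at 19.8, 15.4 and 20.01 FPKM in control and 1.07, 3.95 and 5.34 FPKM in TBI (-2.26 ± 0.44, adjusted p = 0.0176), lowest in TBI replicate 1 as for the B cell genes. Without that library it was at -1.78 (adjusted p = 0.0541 with 12 libraries and 0.00042 with 6). The class II chains H2-Aa and H2-Ab1 were not called: H2-Ab1 lay at 128 to 167 FPKM in control and at 48.0, 132 and 94.7 FPKM in TBI, with overlap. In the 12-library fit, leaving out 1 library left 0 to 2 calls in this list and 5 to 6 in class I. In the 6-library fit it left 11 (without control replicate 2) to 19 calls in class I.

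The type I interferon, MHC, B cell, T and natural killer, dendritic cell and macrophage lists were also low in unirradiated mice that had received DEIX. The stem and progenitor list and the cytosolic ribosomal protein list were low there as well. The mean of the B cell surface list lay 2.43, 1.57 and 1.40 below the control mean in the TBI libraries and 1.45, 1.26 and 1.08 below it in the DEIX libraries (log2). The pre-B list lay 2.75, 2.31 and 2.13 below it in DEIX, and the T and natural killer list 0.71, 0.35 and 0.56 below it. The dendritic cell list lay 1.08, 0.84 and 0.79 below it in TBI and 0.87, 0.55 and 0.60 below it in DEIX, and the macrophage list 0.45, 0.49 and 0.81 and 1.06, 0.94 and 0.66 below it. Relative to the control mean, the stem and progenitor list lay at -0.928, -0.795 and -0.782 in TBI and -0.413, -0.261 and -0.285 in DEIX. The ribosomal protein list lay at -0.43, -0.289 and -0.306 in TBI and -0.385, -0.278 and -0.693 in DEIX. The megakaryocyte list lay at -0.337, -0.322 and 0.009 in DEIX. Lgals3bp averaged 96.4 FPKM in control, 35.5 in TBI, 34.0 in DEIX and 39.997 FPKM in TBI+DEIX. Irgm1 averaged 16.9 FPKM in DEIX, H2-K1 282 FPKM and Ifit3b 2.17 FPKM, each nearer to its TBI mean than to its control mean. The mean of the 43 type I genes lay 1.29, 1.22 and 1.39 below the control mean in the TBI libraries and 1.14, 1.29 and 0.84 below it in the DEIX libraries (log2). DEIX and TBI are set here against the same 3 control libraries, so a high level in those controls would enter both. Whether the control libraries or the gavage shared by treated mice has a part in the result was not tested.

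**Figure D4:**
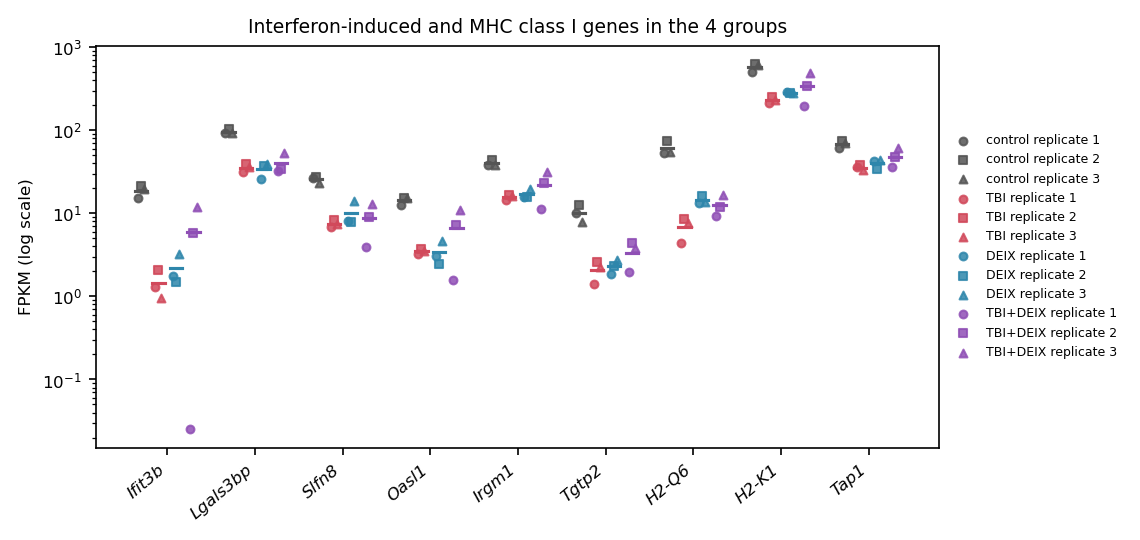
FPKM (vertical axis, log scale) of 9 interferon-induced or MHC class I genes in every library of the 4 groups, with the replicate given by the marker and the group mean by a short bar. Control libraries lie above the TBI libraries for each gene. The DEIX mean lies near the TBI mean for Lgals3bp (34.0 against 35.5 FPKM) and above it for H2-Q6 (14.6 against 6.87 FPKM).

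None of the tested genes in 5 red cell lists was called, and the TBI libraries differed among themselves. Slc4a1, the anion exchanger band 3 of the red cell membrane, was at 108, 81.2 and 102 FPKM in control and at 260, 56.9 and 151 FPKM in TBI. Replicate 2 lay below the controls and replicates 1 and 3 above them. The iron receptor Tfrc was at 72.5 to 86.6 FPKM in control and 155, 90.6 and 151 FPKM in TBI (adjusted p = 0.328). Over the 16 membrane and skeleton genes, the TBI libraries lay at 0.87, -0.32 and 0.68 relative to control. With the 6-library fit 1 of the 16 genes was called higher, against 5.13% of all genes. Without TBI replicate 2 that number was 12, against 3.31% of all genes. All 8 haem synthesis genes had a positive change, with a median of 0.33, and none was called. Without TBI replicate 2 the median was 0.64 and the 6-library fit called 5 of the 8 higher, again against 3.31%, and without TBI replicate 3 the median was 0.13.

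No gene of the neutrophil granule lists was called with 12 libraries. With 6 libraries none of 9 primary granule genes was called, while 4 of the 13 secondary and tertiary granule genes for which a change is given were higher, against 5.13% of all genes. In that list 9 genes lay without overlap above the controls, against 22% of all genes. Of 6 genes of the NADPH oxidase, which makes superoxide, 3 were called higher with 6 libraries and none with 12. In the 6-library fit, leaving out 1 library gave 0 to 4 higher calls for secondary and tertiary granules and 0 to 3 for the oxidase. For primary granules it gave 0 to 1 higher calls and 0 to 4 lower calls, the 4 without TBI replicate 1. The median of the primary granule list was -0.405. Elane, the elastase of primary granules, overlapped between the groups at 838 to 1259 FPKM in control and 550 to 1038 FPKM in TBI. The integrin Itgam was higher in every TBI library (304 to 428 FPKM against 238 to 249 FPKM, adjusted p = 0.133, and 0.0339 with 6 libraries). Cybb, the catalytic part of the oxidase, showed the same order (457 to 641 FPKM against 354 to 378 FPKM, adjusted p = 0.151, and 0.0355 with 6 libraries).

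Among 20 classical monocyte genes only Vcan was called (0.891% of all genes were called higher), and it was the largest rise among called genes. With 6 libraries 3 of the 20 were called lower and Vcan higher, against 7.76% and 5.13% of all genes. Without overlap 5 lay below and 3 above the controls, against 16.3% and 22%. Vcan encodes the matrix proteoglycan versican (chromosome 13, 89655312 to 89742509). It stood at 1.84, 2.08 and 1.13 FPKM in control and at 22.96, 12.2 and 6.199 FPKM in TBI, 8.18-fold higher in the mean (2.31 ± 0.43, adjusted p = 0.0144). The TBI libraries were widely spread but all lay above the controls. The monocyte genes Ly6c2 and Lgals3 overlapped between the groups. The call of Vcan was lost when control replicate 1 or 3, or TBI replicate 2, was left out (adjusted p up to 0.077).

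Marrow macrophages surround maturing red cells and recycle iron. Of 17 such genes, 3 fell (9 with 6 libraries), against 3.1% of all genes (7.76% with 6 libraries), all from the C1q cluster on chromosome 4 that encodes the first complement component. C1qa stood at 38.2, 40.4 and 36.1 FPKM in control and 20.3, 19.4 and 12.9 FPKM in TBI (-1.10 ± 0.23, adjusted p = 0.0232), and C1qb and C1qc fell by 0.95 and 0.96. When 1 of the 6 libraries was left out, 0 to 2 of these calls remained in the 12-library fit. The iron exporter Slc40a1 was not called, at 85.8 to 98.6 FPKM in control and 102 to 126 FPKM in TBI (adjusted p = 0.678). C3 was higher in every TBI library (281 to 343 FPKM against 189 to 198 FPKM) but passed only with 6 libraries (adjusted p = 0.119, and 0.0071).

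Genes of bone-resorbing osteoclasts were among the rises. Ctsk, the collagen-degrading protease of osteoclasts (chromosome 3, 95499256 to 95509362), stood at 1.18, 0.902 and 1.94 FPKM in control and 6.52, 6.22 and 9.22 FPKM in TBI, 5.45-fold higher in the mean (1.84 ± 0.29, adjusted p = 0.00554). Atp6v0d2, a proton pump part of the same cells, went from 0.270, 0.293 and 0.458 FPKM to 1.07, 1.37 and 1.44 FPKM (0.77 ± 0.19, adjusted p = 0.0448). These were 2 of 10 tested osteoclast genes, against 0.891% of all genes called higher. The call of Atp6v0d2 was lost in 11 of 29 alternative settings, including each of the 6 leave-outs of the 12-library fit, and that of Ctsk in none. Acp5, the tartrate-resistant phosphatase, did not differ beyond the spread (24.3 to 28.8 FPKM against 40.03, 18.7 and 35.4 FPKM). Collagen Col1a1 rose from 0.835 to 1.13 FPKM to 1.75 to 3.39 FPKM (0.77 ± 0.17, adjusted p = 0.0315), a call lost in 11 of 29 alternative settings, and Sparc, another matrix gene of osteoblasts, was at 1.42 to 2.19 FPKM and 3.35 to 5.44 FPKM (adjusted p = 0.0678). Pecam1, which endothelial and blood cells share, fell from 12.7 to 14.4 FPKM to 6.24 to 6.37 FPKM (-1.001 ± 0.17, adjusted p = 0.00784, and 0.0567 on the TPM scale). A further 9 of the 19 stromal and bone genes did not reach the expression filter.

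None of 26 p53 target genes was called on day 14 with 12 libraries. Leaving out 1 of the 6 libraries gave 0 to 1 higher calls and no lower call in that fit. With 6 libraries 2 were called higher and 3 lower, against 5.13% and 7.76% of all genes, and 0 to 4 each way when 1 library was left out. Without overlap 8 lay above and 5 below the controls, against 22% and 16.3%. The median was 0.11, and 0.07 without TBI replicate 3. Cdkn1a, the cell cycle inhibitor p21, stood at 7.25, 7.85 and 9.38 FPKM in control and 11.1, 12.3 and 13.2 FPKM in TBI, without overlap but short of the threshold (0.53 ± 0.14, adjusted p = 0.0685, and 0.0201 with 6 libraries). Ccng1, another p53 target, was at 25.7 to 32.3 FPKM and 37.3 to 38.5 FPKM (adjusted p = 0.0908). Bax, the pro-apoptotic target, overlapped between the groups at 30.8 to 37.1 FPKM in control and 31.8 to 41.8 FPKM in TBI. None of 24 DNA break and repair genes was called (2 higher with 6 libraries, against 5.13%). In the BCL2 family the survival gene Bcl2 fell from 6.16 to 7.74 FPKM to 2.78 to 4.40 FPKM (-0.76 ± 0.15, adjusted p = 0.0176). Its call was lost in 7 of 30 alternative settings, among them the TPM scale and each control replicate left out (adjusted p up to 0.0884). It was 1 of 15 family members called lower (5 with 6 libraries), against 3.1% of all genes (7.76% with 6 libraries).

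Proliferation genes leaned upward without passing the test. All 29 mitosis genes and 35 of 36 DNA replication genes had a positive change, with medians of 0.26 and 0.19, against 6350 of all 10994 genes with a positive change and a median of 0.05. None was called with 12 libraries. With 6 libraries 5 and 1 were, against 5.13% of all genes, and 0 to 6 and 0 to 2 when 1 library was left out. Without TBI replicate 3 the DNA replication median was 0.09. Rrm2, the regulated part of ribonucleotide reductase, was at 169 to 181 FPKM in control and 220 to 293 FPKM in TBI (0.54 ± 0.14, adjusted p = 0.064). The libraries of 21 mitosis genes did not overlap, all higher in TBI, against 22% of all tested genes. Genes within a list vary together, so these counts describe the list.

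The amino acid response, driven by the factor ATF4, had 1 gene of 27 called higher, against 0.891% of all genes. With 6 libraries 8 were, against 5.13%, and 2 to 10 when 1 library was left out. Asns, the enzyme that makes asparagine, rose from 30.8, 32.9 and 29.7 FPKM to 60.9, 61.2 and 79.2 FPKM, the groups well apart (1.07 ± 0.13, adjusted p = 0.00123). Its promoter is shown because it holds the element TGATGNAA (CARE), to which ATF4 binds, 23 bases before the start (chromosome 6, 7693210 to 7693262, minus strand, GRCm38.p6, match in capitals).
Asns: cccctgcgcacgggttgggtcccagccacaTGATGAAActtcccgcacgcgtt

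The element was found in 8 of 23 genes of the list with a promoter entry (34.8%), against 2.54% of the 8781 tested genes with an entry. It was also found in 5 of 33 type I interferon-stimulated genes (15.2%), and in 2 of 76 genes called higher (2.63%). Atf4 itself overlapped between the groups at 94.2 to 121 FPKM in control and 102 to 130 FPKM in TBI. The tRNA synthetase Gars was at 38.4 to 39.8 FPKM and 49.0 to 65.0 FPKM (adjusted p = 0.2, and 0.0206 with 6 libraries). The glycolytic enzyme Hk1 rose from 46.0 to 51.0 FPKM to 70.9 to 82.2 FPKM (0.63 ± 0.10, adjusted p = 0.00673), a call lost on the TPM scale (adjusted p = 0.0841). All 18 glycolysis genes had a positive change, with a median of 0.30. The antioxidant enzymes Txnrd1 and Prdx6 rose by 0.56 and 0.35, but lost their calls in 6 and 22 of 30 alternative settings. Among 82 genes of cytosolic ribosomal proteins and their paralogs none was called (8 lower with 6 libraries, against 7.76% of all genes, and 0 to 10 when 1 was left out). Their median was -0.34, or -0.17 after quantile normalization, and 52 were lower in every TBI library than in every control library, against 16.3% of all genes.

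The remaining large changes were in genes outside the lists described above. This does not place them outside the cell types of those lists. Myl4, a myosin light chain, fell from 28.9, 31.5 and 33.7 FPKM to 1.07, 2.87 and 4.46 FPKM (-3.20 ± 0.36, adjusted p = 0.00094), and Fam129c from 35.8 to 44.2 FPKM to 1.02, 6.48 and 7.65 FPKM (-3.02 ± 0.53, adjusted p = 0.0102). The endocytic receptor Ly75, the vesicular nucleotide transporter Slc17a9, the triglyceride-making enzyme Dgat2, the transcription cofactor Lmo1, the phosphodiesterase Pde8a and the nuclear envelope protein Syne1 rose by 0.71 to 0.88, as did Tbc1d24, Nos1ap and Acpp within the same limits. Pde8a, Tbc1d24 and Acpp were called in all 30 alternative settings, while Nos1ap lost its call in 16, Lmo1 in 9, Syne1 in 7, Ly75 in 6, Slc17a9 in 5 and Dgat2 in 4. The immediate early genes Egr3 and Klf2, the chemokine Ccl4, the growth factor Csf1, the eosinophil gene Prg3 and the cathepsin Ctso fell by 0.59 to 1.17. Csf1 was called in all 29 of its alternatives, while Ctso lost its call in 15 of 30, Klf2 in 13 of 30, Ccl4 and Prg3 each in 8 of 29 and Egr3 in 2 of 29. Il1b was at 70.3 to 82.9 FPKM in control and 28.3 to 35.3 FPKM in TBI but passed only with 6 libraries (adjusted p = 0.336, and 0.0005).

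The second irradiation contrast, TBI+DEIX against DEIX, asked which of these changes appeared in mice that were all on DEIX. It called 283 genes (2.57%), 194 lower (1.76%) and 89 higher (0.81%). Both contrasts came from the same fit and used the same estimate of spread for each gene, so their calls are not independent. Of the 439 genes called in TBI against control, 89 were also called there with the same sign, which is 20.3% of the one set and 31.4% of the other, and 3 were called with the opposite sign. The change had the same sign in 281 of the 341 falls (82.4%) and 92 of the 98 rises (93.9%), against 68.5% of all tested genes. The median was -0.38 for the falls and 0.33 for the rises.

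Some of the called progenitor, megakaryocyte, dendritic cell and B cell surface genes recurred in that contrast. Over all 341 falls, 68 were called lower again. Of the 6 called progenitor genes, 4 fell again, among them Cd34, Meis1 and Myct1. Cd34 averaged 17.1 FPKM in DEIX and 4.20 FPKM in TBI+DEIX (-1.90, adjusted p = 0.0154). Of the 8 megakaryocyte falls, Ppbp, Tubb1, Gng11 and Mrvi1 fell again, Tubb1 from 2.10 to 0.662 FPKM (adjusted p = 0.0306). Of the 7 dendritic cell falls, 5 recurred, Siglech from 16.3 to 3.54 FPKM (-2.01, adjusted p = 0.00379). Of the 9 B cell surface falls, Fcmr, Fcer2a, Cd22 and Cr2 recurred, Fcmr from 6.96 to 0.252 FPKM (-2.63, adjusted p = 0.000773). Of the 7 T and natural killer cell falls none was called again and their median was -0.04, and none of the 3 B cell transcription factor falls (median -0.73) or the 3 class II falls (median -0.995) was. Ctsk rose again, from 1.44 to 6.39 FPKM (1.62, adjusted p = 0.0186), as did Asns, from 42.2 to 69.5 FPKM (0.71, adjusted p = 0.0191). The upward lean of the proliferation genes was not seen there, with medians of 0.003 for mitosis and -0.132 for DNA replication.

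Of the 31 called genes in the interferon and MHC lists, none was called in the second contrast and 12 had a negative change there, with a median of 0.12. The TBI+DEIX libraries were far apart for these genes: the mean of the 43 type I genes lay 2.34, 0.77 and 0.32 below the control mean in replicates 1 to 3, on either side of the DEIX libraries. Lgals3bp moved by 0.21 (adjusted p = 0.657) from an already low DEIX level. Vcan (34.1 FPKM in DEIX, 24.02 in TBI+DEIX) stood in unirradiated DEIX mice above its TBI levels, and Myl4 (2.28 and 0.977 FPKM) within the range of its TBI levels. Neither was called in the second contrast (adjusted p = 0.616 and 0.295). The difference between the contrasts was tested with an interaction term, which called 22 genes (0.2%), 21 of them higher and 1 lower (0.0091%), with 825 genes with an unadjusted p under 0.05. It included 5 of the 31 interferon and MHC genes and the 3 C1q genes, but not Vcan (adjusted p = 0.121) or Myl4 (0.115). These counts rose to 927 for the second contrast and 331 for the interaction without TBI+DEIX replicate 1.

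**Figure D5:**
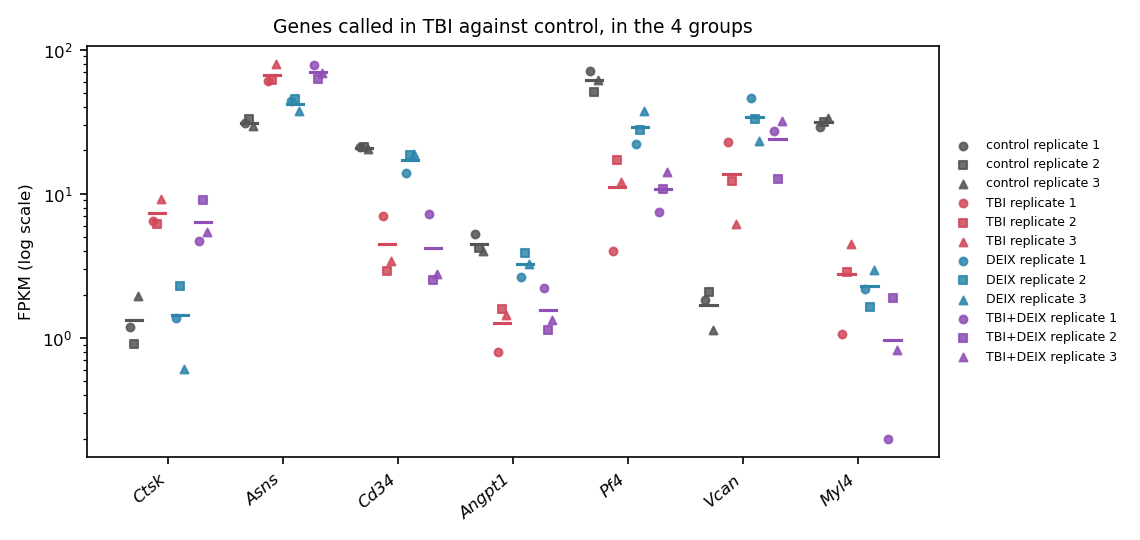
FPKM (vertical axis, log scale) of 7 genes called in TBI against control, in every library of the 4 groups, with the replicate given by the marker and the group mean by a short bar. For Ctsk, Asns, Cd34, Angpt1 and Pf4 the DEIX mean lies nearer to control than to TBI on the log axis, as for Cd34 at 17.1 FPKM, while for Vcan and Myl4 it lies nearer to TBI.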

How the data were processed

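RNA of whole bone marrow was sequenced in 12 libraries, 3 per group, from a directional library kit, per the labels' protocols. The authors deposited 1 table of FPKM values per gene and library. STAR 2.6, Cufflinks 2.2.1 and build mm10 are named per the submitters' processing notes; the annotation and filters used are not given in the sources used here. FPKM are relative values, and a few very abundant genes can shift the others. The 21853 gene identifiers all matched protein-coding genes of GENCODE vM21, which gave symbols and coordinates, and 24 symbols are shared by more than 1 identifier.

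Values were analysed as log2(FPKM + 1) with limma 3.58.1 in R 4.3.3 (group means, empirical Bayes with trend, Benjamini-Hochberg over 10994 genes that reached 1 FPKM in 3 or more of the 12 libraries), which leaves 8 residual degrees of freedom, or 4 with 6 libraries. A pseudocount of 1 understates changes of low genes. Fold values are ratios of mean FPKM. Other pseudocounts, filters, scalings and weights, a replicate block and leaving out each library were tried as alternatives. The fit was tested on simulated data. Gene lists (53 in all, of which those described are named with their counts) were compared with the counts over all genes, with no test of a list. The experiment, lists and tests were chosen with earlier results of these data known. Named genes were the 15 largest rises and 15 largest falls without overlap and with a mean of at least 5 FPKM, called list members, and the 4 highest members of each list. Members named outside that rule (Pax5, Kit, Cd3e, Cd8a, Vwf and Ifit3) and the genes of the closing section were chosen after their values were seen. Some genes that met the rule, and a further gene group noticed after the values were seen, are not reported here. Promoters were read from a RefSeq table (GRCm38.p6) that held 8781 of the tested genes.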

Additional observations from a re-analysis of the deposited data

Results flagged for a closer look

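Of the genes called in TBI against control, 19 had an irradiation effect that differed by DEIX, and 8 of them are named here. In these the irradiation effect differed between mice without and with DEIX by an interaction term (limma, adjusted p under 0.05 over all tested genes), given as the log2 change in TBI+DEIX against DEIX minus that in TBI against control. The C1q genes, which encode the first complement component of macrophages, went in opposite directions. C1qa fell from a mean of 38.2 to 17.5 FPKM with TBI and rose from 11.5 to 33.3 FPKM in the mice on DEIX (difference 2.52). C1qb (2.43) and C1qc (2.27) had the same pattern. In the second contrast the 3 genes were called higher (adjusted p = 0.0146, 0.00657 and 0.0162).

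The other 5 genes are interferon-induced, and all were low in DEIX without irradiation. H2-Q6 averaged 61.2 FPKM in control, 6.87 in TBI, 14.6 in DEIX and 12.7 FPKM in TBI+DEIX (difference 2.79). The difference was 1.79 for H2-Q4, 2.21 for Tgtp2, 1.63 for Lgals3bp and 1.33 for Oas1c. None of these 5 was called in TBI+DEIX against DEIX. Each comparison rests on 3 libraries per group, and the part of the control libraries in these differences was not tested.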

How the results depend on the processing

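The 3 replicates per group and FPKM without counts limit what these data resolve. None of the 108 called genes that were followed changed sign: over 3201 pairs of gene and alternative the call was lost in 475, and 43 genes kept it in every alternative run. The 439 calls of TBI against control became 1417 with 6 libraries, 675 without a filter on low values, 134 at a mean FPKM of at least 5, 291 on the TPM scale and 7017 with array weights, whose estimate did not converge. Leaving out 1 library gave 153 to 1337 calls with 12 libraries and, in a set of fits added after seeing the data, 755, 554 and 674 without control replicates 1 to 3 and 1817, 1027 and 1284 without TBI replicates 1 to 3 in the 6-library fit. For TBI+DEIX against DEIX, 283 calls became 104 at a mean of at least 5 and 1222 with array weights, and 50 to 927 when 1 library was left out. For the interaction, 22 became 11 at a pseudocount of 0.1, 37 without a filter, 7 at a mean of at least 5, 38 after quantile normalization and 1148 with array weights, and 4 to 331 when 1 library was left out. Array weights also moved list medians, to -0.98 for B cell surface, -0.58 for B cell transcription factors, -0.18 for pre-B, 0.06 for DNA replication, 0.13 for mitosis and -0.02 for haem synthesis genes. The pre-B median was -1.42 at a mean of at least 5 and -1.07 without TBI replicate 3. Same-numbered control and TBI libraries share only a number (correlation of their deviations 0.067, 0.032 and 0.017). With that number as a replicate block, calls were 378 for TBI against control (1040 with 6 libraries) and 180 for TBI+DEIX against DEIX.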

Other observations

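One of 2 groups noticed after the values were seen was the Ifi200 family on chromosome 1, whose proteins include sensors of DNA. All 9 tested members had a negative change, with a median of -1.61. With 12 libraries 5 fell, against 3.1% of all genes, and with 6 libraries 8, against 7.76%. Ifi213 stood at 11.1, 12.03 and 8.88 FPKM in control and 0.545, 1.29 and 1.13 FPKM in TBI, and Ifi209 at 61.9, 55.4 and 54.5 FPKM and 13.1, 15.8 and 16.1 FPKM. These genes are similar to each other, so the split of reads among them is uncertain. In the mice on DEIX the median of the 9 was -0.62.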
